A study of Mus musculus with 6 samples.

Results

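The integrin and laminin subunits were examined in hearts of mice infused with angiotensin II (Ang II), with and without tectochrysin (Tec), a plant flavonoid. The 36 genes were taken by their symbols from the protein-coding genes of the expression table, which holds 30914 genes. They comprise 18 integrin alpha subunits, 8 integrin beta subunits and 10 laminin chains. Lama1 was not analysed here.

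Both groups consisted of 3 wild-type male C57BL/6J mice, 8 weeks of age, infused by osmotic pump for 4 weeks with Ang II (1 μg/kg/min). The mice of the Ang II + Tec group also received Tec at 5 mg/kg during the last 2 weeks of the infusion. Polyadenylated RNA of the heart was sequenced, and the comparison asks which subunit transcripts differ in the Ang II heart when Tec is given. No library of an uninfused heart enters this comparison, so a value cannot be read as a return to a resting level. Levels are given in FPKM, fragments per kilobase of transcript and of sequencing depth, which allow levels of different genes to be compared.

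Integrins are cell surface receptors made of 1 alpha and 1 beta subunit, and they tie the matrix outside a cell to the cytoskeleton inside it. Laminins are trimers of an alpha, a beta and a gamma chain, and they form the sheet of the basement membrane that surrounds each cardiomyocyte and underlies the endothelium. Cardiomyocytes hold on to laminin through the alpha7 and beta1 subunits and through dystroglycan, fibroblasts use alpha11, alphav and their beta partners to hold collagen and other matrix and to release active transforming growth factor beta, and leukocytes use the beta2 integrins to leave the vessel and enter tissue.

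The libraries differed within the groups as well as between them. The sums of FPKM ran from 516699 to 629989, with overlapping groups. Mitochondrially encoded transcripts held 41.3%, 40.1% and 48.9% of the sum in Ang II replicates 1 to 3. In Ang II + Tec replicates 1 to 3 their share was 51.3%, 49.6% and 52.5%. For this share the groups did not overlap, although Ang II replicate 3 lay close to the Ang II + Tec libraries. Ang II replicate 3 stood apart from its group along principal component 1 of the tested genes, at 19.2 against -31.2 and -46.0 for the other Ang II libraries and 2.39 to 28.6 for the Ang II + Tec libraries. It was the lowest Ang II library for 30 of the 36 subunits. The share of all genes for which it was the lowest is not given, so this count is not read as particular to the subunits. Summed atrial markers were at 636 and 797 FPKM in Ang II replicates 1 and 2 and at 1544 FPKM in Ang II + Tec replicate 2, but at 0.29 to 2.62 FPKM in the remaining libraries, so the hearts did not hold atrial tissue to the same extent. The libraries with high atrial markers were also the highest for Itgb1, Itgb5, Itgav, Lamc1, Lama2 and Lama4, among others. For Itgam, Itgb2, Itga6 and Lamb1, Ang II replicates 1 and 2 also stood above every other library, but Ang II + Tec replicate 2 was below Ang II replicate 3. Within its own group, Ang II + Tec replicate 2 was the highest for Itga6, Itga7 and Lamb1 and the lowest for Itgam and Itgb2. For Itga7 the highest library was Ang II replicate 3. The part of atrial tissue in the subunit values was not tested. The 6 cardiomyocyte markers were present in every library, with sums of 4124 to 5834 FPKM in Ang II mice and 5109 to 5930 FPKM in Ang II + Tec mice.

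**Figure D1:**
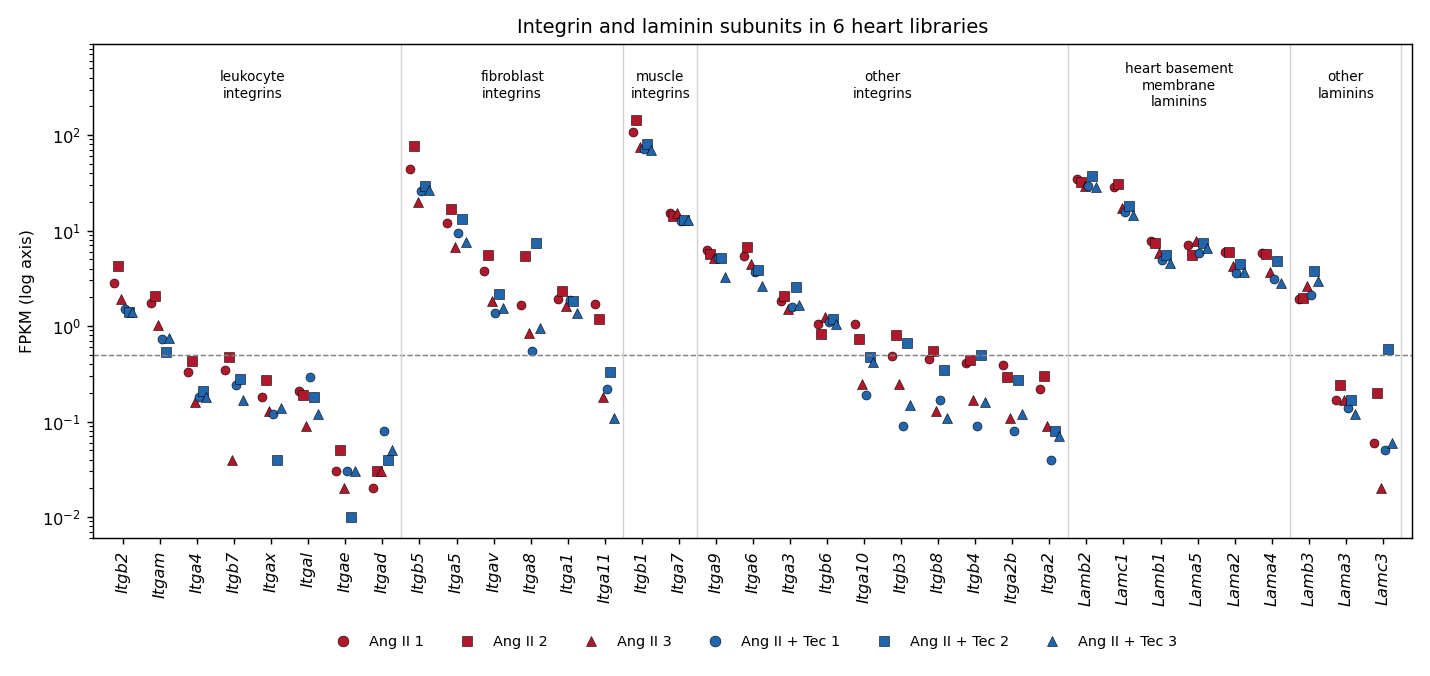
FPKM of 35 subunits on a log axis, with 1 point for each of the 6 libraries, red for the Ang II group and blue for the Ang II + Tec group. The dashed line marks 0.5 FPKM, the level that at least 3 libraries had to reach for a gene to be tested, and within each library Itgb1 stands above every other subunit.

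None of the 36 subunits was at 0 in any library, but their levels spanned a wide range. Itgb1, the beta subunit that most alpha subunits pair with, was the most abundant. It stood at 106, 144 and 75.0 FPKM in Ang II replicates 1 to 3 and at 72.0, 80.8 and 69.5 FPKM in Ang II + Tec replicates 1 to 3. Its level exceeded the sum of all 18 alpha subunits in every library, where that sum ran from 34.1 to 63.9 FPKM. After Itgb1 came Itgb5, Lamb2 and Lamc1, whose ranges over the libraries overlapped, and then Itga7 and Itga5. Itga7 was above Itga5 in 4 libraries and below it in replicate 2 of both groups, so their order is not settled by these mice.

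Of the 36 subunits, 21 had at least 0.5 FPKM in at least 3 libraries and were tested with limma on log2(FPKM + 1) together with all 13089 genes that passed this filter. The remaining 15 were not tested. They were 6 of the 8 leukocyte integrins, 1 of the 6 fibroblast integrins (Itga11), 6 of the 10 other integrins and 2 of the 4 other laminins. Every chain of the heart basement membrane and both muscle integrins were tested.

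No subunit was differentially expressed at an adjusted p under 0.05 (limma with Benjamini-Hochberg adjustment) together with a log2 fold change of 1 or more in size. Of all tested genes, 0.16% passed both limits, and 0.183% passed the adjusted p alone, which no subunit did either. At an unadjusted p under 0.05, 7 subunits were lower in Ang II + Tec mice, where 16.5% of all tested genes were, and 0 were higher, where 2.09% of all tested genes were. The 7 were Itgam, Itga6, Itgb2, Lamb1, Lamc1, Itgav and Lama2. The groups did not overlap for 5 subunits that were lower, Itgam, Itga6, Itgb2, Lamb1 and Itga7, against 18.9% of all tested genes, and for 0 that were higher, against 2.9%.

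The direction of the table as a whole has to be read beside these counts. The estimate was below 0 for 18 of the 21 tested subunits, but also for 80% of all tested genes. The median log2 fold change was -0.28 for the subunits and -0.17 for all tested genes. After the libraries were rescaled by the median of ratios, which brought the median of all genes to 0.002, 11 subunits were lower and 10 higher, with a median of -0.089, and 49.6% of all tested genes were lower. In that scaling 5 subunits were lower at an unadjusted p under 0.05, where 8.2% of all genes were, and 1 was higher, Lamb3, where 7.36% of all genes were. Relative to the typical gene, fold changes of the subunits therefore lay higher than those of the deposited values, by amounts that differed between genes. That of Itgb1 went from -0.50 to -0.26, and that of Itgam from -0.62 to -0.49. In hearts sequenced whole, fewer cells of a type and less RNA per cell cannot be told apart.

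**Figure D2:**
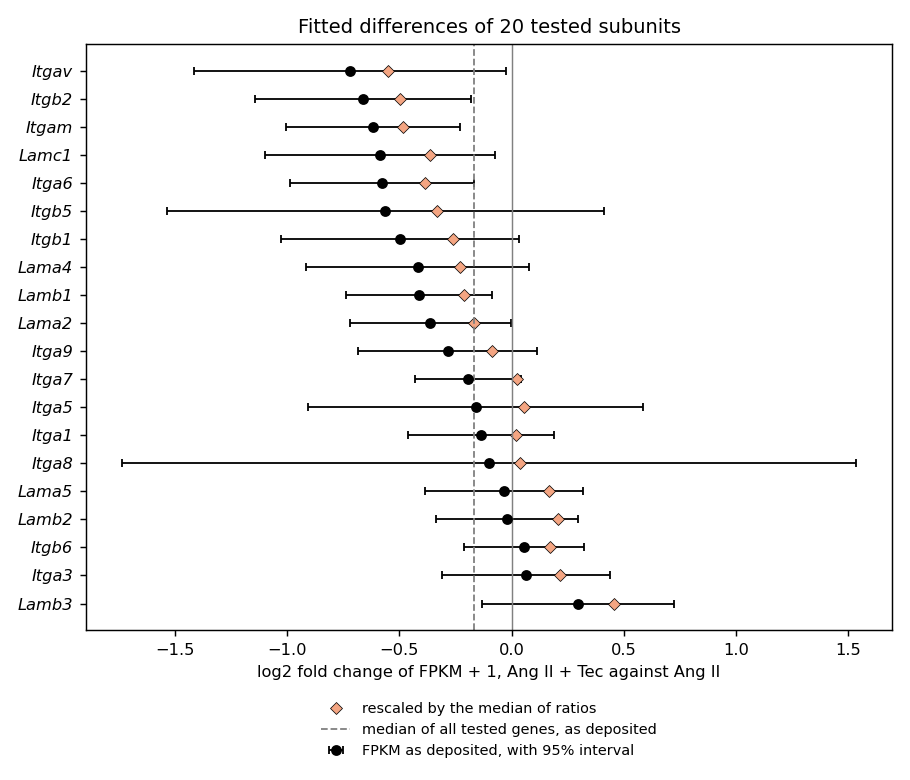
Fitted log2 fold change of FPKM + 1 in Ang II + Tec mice against the Ang II group for 20 of the tested subunits (black, with 95% intervals) and the same after rescaling by the median of ratios (diamonds). The dashed line is the median of all tested genes, -0.17, and the interval of Itgam from -1.01 to -0.23 lies wholly below it.

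Among the leukocyte integrins, the pair Itgam and Itgb2 was detected well enough to be tested. Together they form the alphaM beta2 receptor of macrophages, monocytes and neutrophils, which binds complement fragments, fibrinogen and intercellular adhesion molecules. Itgam, which lies on the plus strand at chr7:128062640-128118491 in the deposited coordinates (GRCm38), was at 1.73, 2.04 and 1.03 FPKM in Ang II mice and at 0.74, 0.53 and 0.75 FPKM in Ang II + Tec mice. All 3 Ang II + Tec libraries lay below the lowest Ang II library. The fold change was -0.62 ± 0.17 on the log2 scale (SE, limma, unadjusted p = 0.00677, adjusted p = 0.201). It rests on an estimated 51 to 152 fragments per library, a low depth, and Itgam overlaps another annotated gene on its strand, Gm49368 (0.410 and 0.233 FPKM).

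Itgb2, the beta subunit shared by the leukocyte receptors, lies on the plus strand at chr10:77530252-77565686. It was at 2.82, 4.21 and 1.91 FPKM in Ang II mice and at 1.52, 1.40 and 1.42 FPKM in Ang II + Tec mice. The groups did not overlap, and the Ang II + Tec mice were nearly alike. Its fold change was -0.66 ± 0.21 (limma, unadjusted p = 0.0139, adjusted p = 0.221). Itgam, Itgb2 and Itga6 were the subunits with an unadjusted p under 0.05 under every alternative run, including the rescaled values, where their fold changes were -0.49, -0.50 and -0.39.

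The macrophage markers moved with this pair. The sum of 5 markers, Adgre1, Cd68, Csf1r, Mrc1 and C1qa, was at 98.9, 124 and 67.9 FPKM in Ang II mice and at 42.6, 45.1 and 49.3 FPKM in Ang II + Tec mice. At an unadjusted p under 0.05 (limma), 5 of the 5 were lower, where 16.5% of all tested genes were. With the median of ratios 3 of the 5 were, where 8.2% of all tested genes were. Against that sum, Itgam and Itgb2 together came to 4.60%, 5.06% and 4.33% in Ang II mice and to 5.30%, 4.28% and 4.40% in Ang II + Tec mice, so that the ratio overlapped between the groups. Most of the sum was C1qa, with means of 65.9 and 28.9 FPKM in Ang II and Ang II + Tec mice. The ratio therefore rests mainly on that gene, and ratios to the other markers are not given. It was chosen after the values had been seen. The part of macrophage content in the lower Itgam and Itgb2 was not tested further. Markers of other leukocytes summed to 0.76 to 3.54 FPKM in Ang II mice and 0.76 to 3.30 FPKM in Ang II + Tec mice and did not separate them.

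The other 6 leukocyte integrins did not pass the filter. Itga4 and Itgb7, which form receptors for vascular and mucosal addressins, Itgal, the alpha subunit of lymphocytes, Itgax, found on dendritic cells and macrophages, Itgae, found on lymphocytes within epithelia, and Itgad were between 0.01 and 0.47 FPKM in every library. Itgad stood at 0.02, 0.03 and 0.03 FPKM in Ang II mice and at 0.08, 0.04 and 0.05 FPKM in Ang II + Tec mice. That is an estimated 1, 2 and 2 fragments against 5, 3 and 4, and Itgad overlaps Cox6a2, an abundant muscle gene on the opposite strand, at mean levels of 808 and 734 FPKM. The library kit is not stated to mark the strand, so reads of the 2 genes may not be separable and no direction is given for Itgad.

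**Figure D3:**
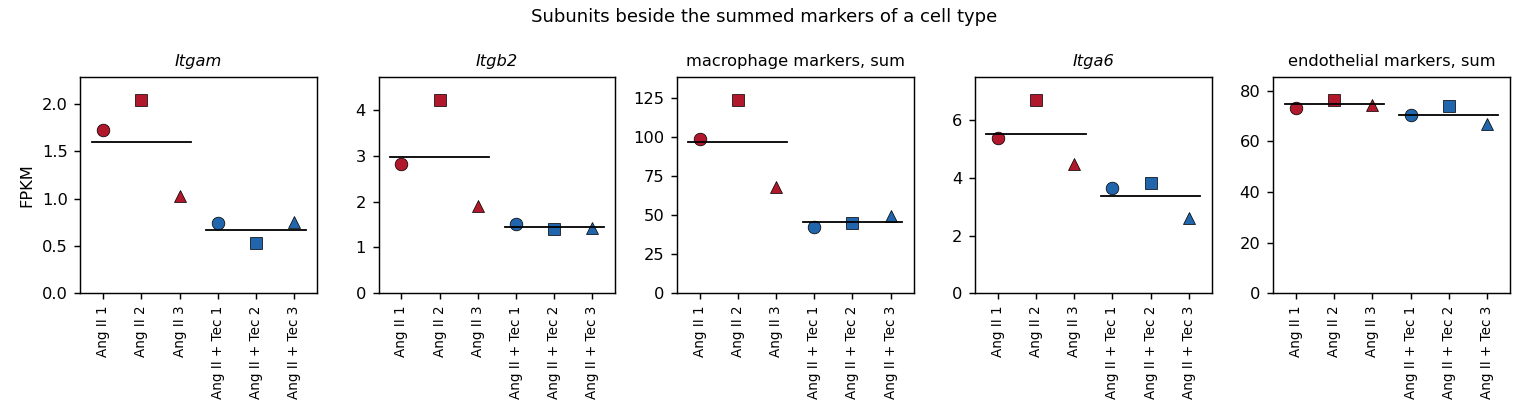
FPKM in each of the 6 libraries for Itgam, Itgb2 and Itga6 beside the summed FPKM of 5 macrophage and 5 endothelial markers, with a line at each group mean. The leukocyte pair follows the macrophage sum, which is 67.9 to 124 FPKM in Ang II mice and 42.6 to 49.3 FPKM in Ang II + Tec mice, whereas the endothelial sum stays between 66.7 and 76.3 FPKM.

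Itga6 encodes the alpha6 subunit, a laminin receptor that is abundant on endothelium and, with the beta4 subunit, on epithelium. The gene lies on the plus strand at chr2:71745616-71858416. It was at 5.38, 6.70 and 4.47 FPKM in Ang II mice and at 3.65, 3.82 and 2.61 FPKM in Ang II + Tec mice. The highest Ang II + Tec library was below the lowest Ang II library. The fold change was -0.58 ± 0.17 (limma, unadjusted p = 0.0123, adjusted p = 0.221).

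The endothelial markers did not follow Itga6. Their sum over Pecam1, Cdh5, Kdr, Tek and Tie1 was 73.3 to 76.3 FPKM in Ang II mice and 66.7 to 74.1 FPKM in Ang II + Tec mice. At an unadjusted p under 0.05 (limma), 1 of the 5, Kdr, was lower, where 16.5% of all tested genes were. With the median of ratios 0 of the 5 were, where 8.2% of all tested genes were. As a share of that sum Itga6 was at 7.34%, 8.79% and 6.02% in Ang II mice and at 5.17%, 5.15% and 3.91% in Ang II + Tec mice, again without overlap. As a share of the summed alpha subunits it was at 10.0%, 10.5% and 11.3% against 9.60%, 7.41% and 7.66%. Of all alpha subunits whose shares were computed (Itga5, Itga6, Itga7, Itga9 and Itgav), Itga6 was the one for which the groups did not overlap. These shares do not depend on a constant factor per library, and they were examined after the values had been seen.

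The muscle integrins are Itga7 and Itgb1, the laminin receptor of striated muscle. Itga7 (chr10:128933818-128958282, plus strand) was at 15.1, 14.0 and 15.4 FPKM in Ang II mice and at 12.5, 13.0 and 13.0 FPKM in Ang II + Tec mice. The groups did not overlap, and for this gene Ang II replicate 3 was the highest library. The fold change was -0.20 ± 0.10 (limma, unadjusted p = 0.0907, adjusted p = 0.317), close to the median of all tested genes, and it was 0.023 in the rescaled libraries.

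Per cardiomyocyte marker, Itga7 made up 0.284%, 0.340% and 0.265% of the summed markers in Ang II mice and 0.211%, 0.255% and 0.237% in Ang II + Tec mice. This share was chosen after the values had been seen, and the marker sum itself leans on a few very abundant sarcomere genes. The fold change of Itgb1 was -0.50 ± 0.23 (limma, unadjusted p = 0.0630, adjusted p = 0.285), and its groups overlapped because the lowest Ang II library, replicate 3, was below Ang II + Tec replicate 2. Itgb1 is made by most cell types of the heart. The ratio of Itgb1 to Itga7 was 7.05, 10.2 and 4.86 in Ang II mice and 5.75, 6.21 and 5.36 in Ang II + Tec mice, so the Ang II mice spanned the whole range of the others.

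Each of the 6 fibroblast integrins was higher in Ang II replicates 1 and 2 than in replicate 3. Itga11, the collagen receptor subunit of fibroblasts and myofibroblasts, was at 1.70, 1.18 and 0.18 FPKM in Ang II mice and at 0.22, 0.33 and 0.11 FPKM in Ang II + Tec mice. An estimated 135, 93 and 14 fragments stood behind the Ang II values and 17, 33 and 11 behind the others. Ang II replicate 3 lay inside the range of the Ang II + Tec group, and Itga11 did not pass the filter. When all genes above 0 were fitted, its fold change was -0.65 ± 0.30 (limma, unadjusted p = 0.0723, adjusted p = 0.458).

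Itgav, whose protein binds vitronectin and the latent form of transforming growth factor beta, lies on the plus strand at chr2:83724397-83806916. It stood at 3.75, 5.52 and 1.81 FPKM in Ang II mice and at 1.38, 2.19 and 1.56 FPKM in Ang II + Tec mice. Its fold change was -0.72 ± 0.30, with an unadjusted p of 0.0437 and an adjusted p of 0.260 (limma), and with the median of ratios it was -0.55 and the unadjusted p 0.0538. Itgb5, a beta partner of alphav, was at 44.1, 76.1 and 20.1 FPKM in Ang II mice and at 25.9, 29.3 and 26.8 FPKM in Ang II + Tec mice. Here Ang II replicate 3 was the lowest of all 6 libraries, and the fold change of -0.56 ± 0.42 had an unadjusted p of 0.216 (limma, adjusted p = 0.440).

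The groups also overlapped for the remaining fibroblast integrins. Itga5, the fibronectin receptor subunit, was at 12.1, 16.7 and 6.72 FPKM in Ang II mice and at 9.33, 13.4 and 7.64 FPKM in Ang II + Tec mice. Its fold change was -0.16, with a 95% interval from -0.91 to 0.59. Itga1, another collagen receptor subunit, was between 1.37 and 2.33 FPKM in all libraries. It overlaps Pelo on its own strand (means of 6.58 and 5.23 FPKM), from whose reads its own may not be separable.

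Itga8, a receptor subunit for nephronectin that mesenchymal and smooth muscle cells carry, had the widest span of FPKM among the tested subunits and is described for that reason, chosen after its values had been seen. It was at 1.67, 5.41 and 0.84 FPKM in Ang II mice and at 0.55, 7.41 and 0.96 FPKM in Ang II + Tec mice, a 13.5-fold span between the highest and the lowest library. Replicate 2 was the high library in both groups, and the same 2 libraries were highest for the mesothelial and epithelial markers (10.6 and 16.3 FPKM, against 0.58 to 3.69 FPKM elsewhere) and for the smooth muscle and pericyte markers (462 and 348 FPKM, against 188 to 259 FPKM). Replicate 2 of each group was also highest for the atrial markers (797 and 1544 FPKM). Ang II replicate 1 came next both for these markers (636 FPKM) and for Itga8. The part of these cells and of atrial tissue in the Itga8 values was not tested.

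The 6 fibroblast markers showed the same split of the Ang II group. Their sum was at 566, 721 and 144 FPKM in Ang II mice and at 126, 204 and 141 FPKM in Ang II + Tec mice. At an unadjusted p under 0.05 (limma), 3 of the 6 (Postn, Col1a1 and Lum) were lower, where 16.5% of all tested genes were. With the median of ratios 3 of the 6 were lower, where 8.2% of all tested genes were. Itgb5 as a share of this sum was higher in Ang II + Tec mice, at 20.5%, 14.4% and 19.1% against 7.80%, 10.5% and 13.9%, whereas the same shares of Itga11 and Itgav overlapped between the groups. These shares were also chosen after the values had been seen. The part of fibroblast content in the values of Itga11, Itgav and Itgb5 was not tested.

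**Figure D4:**
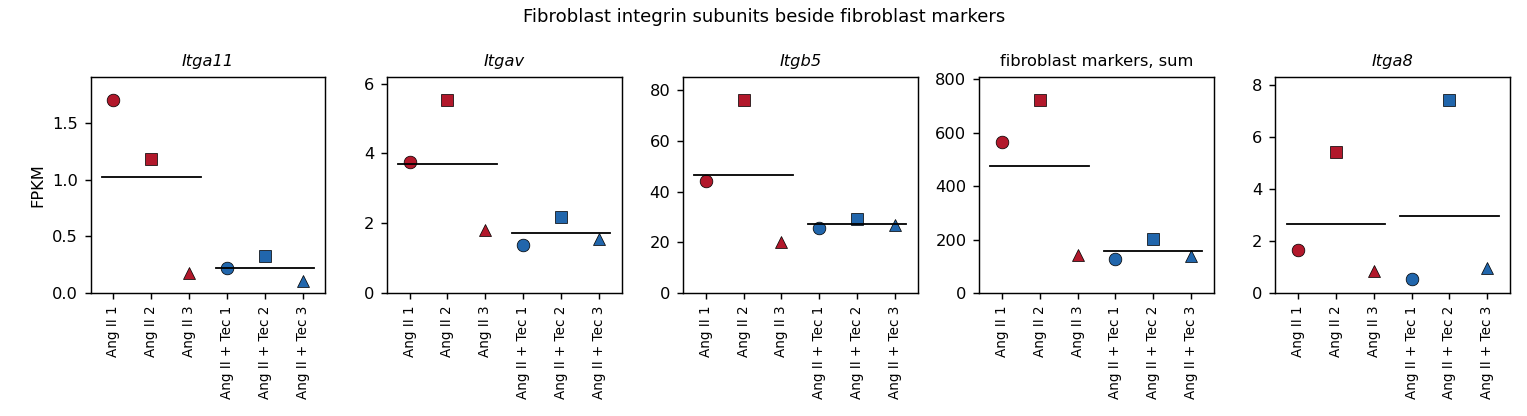
FPKM in each of the 6 libraries for Itga11, Itgav, Itgb5 and Itga8 beside the summed FPKM of 6 fibroblast markers, with a line at each group mean. Ang II replicate 3 sits with the Ang II + Tec libraries in the first 4 panels, at 144 FPKM for the marker sum, while Itga8 is high in replicate 2 of each group.

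How far the comparison rests on Ang II replicate 3 was examined by leaving it out, which leaves 2 Ang II libraries against 3. Both of these Ang II libraries held atrial markers at high levels, as only replicate 2 did in the Ang II + Tec group. Then 10 of the 21 tested subunits were lower at an adjusted p under 0.05 (limma), where 26.2% of all tested genes were. These were Itgb2, Lamb1, Lama4, Lama2, Itgb5, Itgb1, Lamc1, Itgav, Itga6 and Itgam. Itgav at -1.05 (adjusted p = 0.00985) and Itgb5 at -1.06 (adjusted p = 0.0133) also passed the fold limit, as 4.26% of all tested genes did. Leaving out any other single library gave 0 subunits with both limits passed, and 3 to 7 lower at an unadjusted p under 0.05. There were 3 (Itgam, Itgb2 and Itga6) without Ang II replicate 1 or 2 or Ang II + Tec replicate 1 or 3, where 6.29%, 7.64%, 7.68% and 7.6% of all tested genes were lower at that limit, and 7 without Ang II + Tec replicate 2, where 16.4% were.

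The other integrins comprise subunits of epithelium, platelets and cartilage as well as endothelium. Besides Itga6, 3 of the 10 were tested. Itga9, a subunit for tenascin and other ligands, had means of 5.66 and 4.53 FPKM, Itga3, a laminin receptor subunit, had 1.79 and 1.94 FPKM, and Itgb6, an epithelial partner of alphav, had 1.04 and 1.11 FPKM in Ang II and Ang II + Tec mice, respectively. None had an unadjusted p under 0.05 in the deposited scaling. Itga9 overlaps Gm10157, a pseudogene on the opposite strand (means of 4.83 and 4.96 FPKM), from whose reads its own may not be separable. Of the untested ones, Itga2, a collagen receptor subunit of platelets, was at 0.22, 0.30 and 0.09 FPKM in Ang II mice and at 0.04, 0.08 and 0.07 FPKM in Ang II + Tec mice. It rests on an estimated 4 to 34 fragments per library and was named after its values had been seen, because it was the one untested subunit with an unadjusted p under 0.05 when all genes above 0 were fitted (0.0358, limma, adjusted p = 0.413). Itga10, Itga2b, Itgb3, Itgb4 and Itgb8 were between 0.08 and 1.04 FPKM. The platelet markers summed to 11.2 to 17.1 FPKM in Ang II mice and 8.00 to 10.3 FPKM in Ang II + Tec mice. Most of this sum was Pf4, with means of 12.9 and 8.80 FPKM. The groups overlapped for Ppbp and Gp1bb but not for Gp9, which was near 0 with means of 0.243 and 0.020 FPKM.

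The laminin alpha chains of the heart were Lama5, Lama2 and Lama4, at like levels. Lama2, the alpha chain of the muscle basement membrane and the one that binds alpha7 beta1 and dystroglycan, was at 5.90, 5.96 and 4.25 FPKM in Ang II mice and at 3.62, 4.51 and 3.66 FPKM in Ang II + Tec mice. Ang II + Tec replicate 2 was above Ang II replicate 3, so the groups overlapped. The fold change was -0.36 ± 0.15 (limma, unadjusted p = 0.0479, adjusted p = 0.266). With the median of ratios it was -0.17, and the unadjusted p of 0.0702 no longer passed the limit.

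Lama4, the chain of endothelial and muscle basement membrane, had means of 5.07 and 3.55 FPKM and a fold change of -0.42 ± 0.21 (limma, unadjusted p = 0.0871, adjusted p = 0.314). Lama5, the other endothelial chain, had means of 6.80 and 6.57 FPKM and a fold change of -0.036, with a 95% interval from -0.39 to 0.32. As a share of the summed alpha chains, Lama5 was at 37.2%, 31.6% and 49.2% in Ang II mice and at 45.9%, 43.9% and 49.8% in Ang II + Tec mice. The low values were those of Ang II replicates 1 and 2, and replicate 3 lay with the Ang II + Tec mice.

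Lamb1 and Lamb2, the beta chains, differed from each other. Lamb1 (chr12:31265234-31329644, plus strand) was at 7.76, 7.42 and 5.85 FPKM in Ang II mice and at 4.92, 5.56 and 4.52 FPKM in Ang II + Tec mice, without overlap. The fold change was -0.41 ± 0.14 (limma, unadjusted p = 0.0195, adjusted p = 0.229). Lamb2, the beta chain enriched at the neuromuscular junction and in vessel walls and the most abundant laminin chain here, was at 34.9, 32.1 and 29.6 FPKM in Ang II mice and at 29.6, 37.1 and 28.9 FPKM in Ang II + Tec mice. The groups overlapped throughout, and the fold change was -0.020 with a 95% interval from -0.34 to 0.30.

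The ratio of Lamb2 to Lamb1, which no constant factor per library can alter, was 4.50, 4.33 and 5.05 in Ang II mice and 6.02, 6.67 and 6.40 in Ang II + Tec mice. Each Ang II + Tec mouse was above each Ang II mouse, Ang II replicate 3 included. Of the 210 ratios that can be formed from the 21 tested subunits, 25.2% did not overlap between the groups, so non-overlap alone is not particular to this pair. Lamb1 made up 17.4%, 17.9% and 15.4% of the summed beta chains in Ang II mice and 13.4%, 12.0% and 12.4% in Ang II + Tec mice. The pair was picked out after the values had been seen, and no test is given for it.

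Lamc1, the gamma chain common to nearly all laminins of the heart (chr1:153218922-153332786, minus strand), was at 28.5, 30.5 and 17.1 FPKM in Ang II mice and at 15.8, 17.9 and 14.6 FPKM in Ang II + Tec mice. Ang II replicate 3 again lay among the Ang II + Tec libraries. The fold change was -0.59 ± 0.22 (limma, unadjusted p = 0.0301, adjusted p = 0.240).

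The other laminin chains, known from epithelia, were low. Lamb3 was at 1.91, 1.96 and 2.63 FPKM in Ang II mice and at 2.09, 3.75 and 2.96 FPKM in Ang II + Tec mice, with overlapping groups. Its fold change was 0.30 ± 0.18 (limma, unadjusted p = 0.145, adjusted p = 0.375), and 0.46 in the rescaled libraries. Lamb3 overlaps G0s2 (35.9 and 31.8 FPKM in Ang II and Ang II + Tec mice) and Hsd11b1 on the opposite strand, from whose reads its own may not be separable. Lama3 and Lamc3 did not pass the filter, at 0.02 to 0.58 FPKM.

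**Figure D5:**
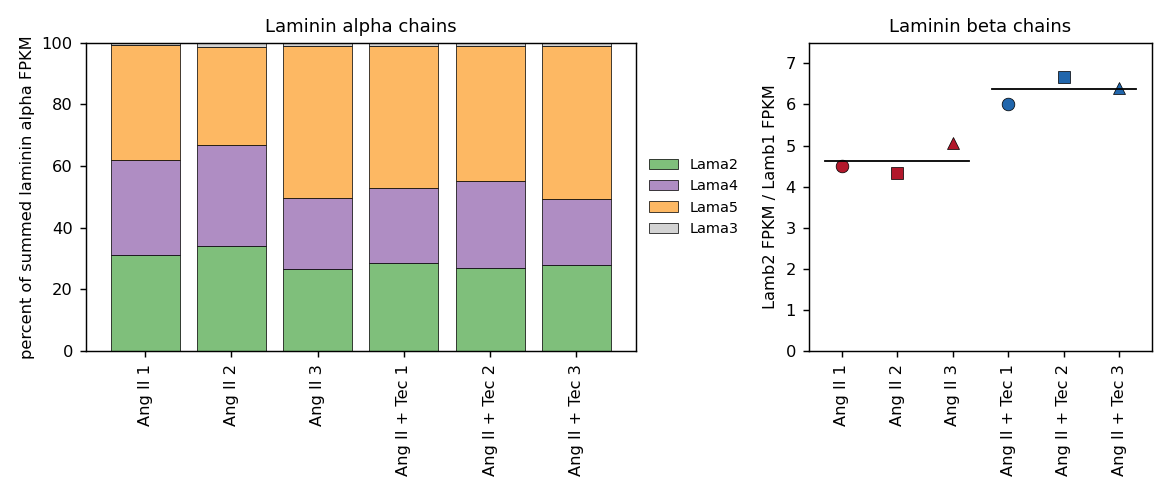
Left, the share of each laminin alpha chain in the summed alpha chain FPKM of each of the 6 libraries. Right, the ratio of Lamb2 to Lamb1 FPKM with a line at each group mean, which is 4.33 to 5.05 in Ang II mice and 6.02 to 6.67 in Ang II + Tec mice.

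The promoter sequences were set beside the subunits to show what lies upstream of those with low Ang II + Tec values. RefSeq windows of 250 bases before to 50 bases after the gene start were found by symbol for 23 of the 36 subunits, on GRCm38.p6. Of the 7 subunits with an unadjusted p under 0.05, Itgam, Itgav, Lamb1 and Lama2 had one, and the first 3 are printed 5′ to 3′ on the plus strand. They stand for a leukocyte, a fibroblast and a basement membrane gene. Capitals mark GAGGAA or its reverse complement TTCCTC, a form of the core bound by PU.1 and other Ets factors, and GGGCGG or its reverse complement CCGCCC, the GC box.
Itgam, chr7:128062390-128062689: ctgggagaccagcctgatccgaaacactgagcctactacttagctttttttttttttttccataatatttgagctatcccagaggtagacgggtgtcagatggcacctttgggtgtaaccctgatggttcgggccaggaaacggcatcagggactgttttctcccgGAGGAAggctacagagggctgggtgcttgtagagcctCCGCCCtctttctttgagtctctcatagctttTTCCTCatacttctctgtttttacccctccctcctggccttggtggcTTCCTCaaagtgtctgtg
Itgav, chr2:83724147-83724446: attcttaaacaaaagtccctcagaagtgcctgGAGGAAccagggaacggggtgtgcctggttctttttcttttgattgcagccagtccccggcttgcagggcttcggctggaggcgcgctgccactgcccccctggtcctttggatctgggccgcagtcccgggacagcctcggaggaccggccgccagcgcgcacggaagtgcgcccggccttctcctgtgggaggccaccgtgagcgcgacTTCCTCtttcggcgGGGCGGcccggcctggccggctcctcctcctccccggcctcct
Lamb1, chr12:31265043-31265342: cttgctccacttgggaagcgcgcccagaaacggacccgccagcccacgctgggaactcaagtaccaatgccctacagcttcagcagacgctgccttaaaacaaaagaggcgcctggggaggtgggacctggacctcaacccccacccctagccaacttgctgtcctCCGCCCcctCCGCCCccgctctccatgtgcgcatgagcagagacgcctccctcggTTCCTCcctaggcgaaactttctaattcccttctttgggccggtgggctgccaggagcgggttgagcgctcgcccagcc

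The Itgam window held 3 matches to GAGGAA and 1 GC box at 50.3% G and C, the Itgav window 2 matches and 1 GC box at 67.3%, and the Lamb1 window 1 match and 2 GC boxes at 63.7%. Across the 23 subunits, 12 windows held GAGGAA on either strand, against 28.3% of 32851 RefSeq windows, and 11 held GGGCGG, against 35.7%. The letters TATAAA were in 0 of the 23 windows, against 13.6% of all windows, and TGACTCA, the AP-1 site, was in 2, against 5.2%. Some windows lay far from the deposited gene start, at 105002 bases for Itga9, 94295 for Lamb3 and 2816 for Lama2. The GAGGAA count includes Lamb3 and Lama2, the GC box count Lama2, and the AP-1 count Itga9. In the printed windows no match overlaps another, and a match describes the letters only.

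The proteins that link integrins to the cytoskeleton were examined as a list of 25 genes, all of which were tested. At an unadjusted p under 0.05, 4 were lower (Parvg, Itgb1bp1, Itgb1bp2 and Vasp) and 1 was higher (Lims2), with 0 past the adjusted limit, and the median log2 fold change was -0.24. Of all tested genes, 16.5% were lower and 2.09% higher at that limit. With the median of ratios, 1 of the 25 was lower (Parvg) and 3 were higher (Lims2, Tns1 and Vcl, named after their values had been seen), with a median of -0.054, against 8.2% and 7.36% of all tested genes. Parvg, the parvin of blood cells, had means of 0.807 and 0.240 FPKM and a fold change of -0.53 ± 0.13 (limma, unadjusted p = 0.00356, adjusted p = 0.198).

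Lims2, which encodes a PINCH adaptor of the integrin-linked kinase complex, was at 15.3, 16.6 and 19.9 FPKM in Ang II mice and at 21.6, 24.2 and 21.7 FPKM in Ang II + Tec mice. Its groups did not overlap, and the fold change was 0.37 ± 0.13 (limma, unadjusted p = 0.0239, adjusted p = 0.232). Itgb1bp1, a regulator that binds the tail of the beta1 subunit, had means of 8.12 and 6.24 FPKM and a fold change of -0.33 ± 0.12 (limma, unadjusted p = 0.0256, adjusted p = 0.234). The talins, vinculin (Vcl) and the focal adhesion kinase gene Ptk2 had no unadjusted p under 0.05 in the deposited scaling.

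Among 14 partners of laminin in the basement membrane and the dystrophin complex, 5 were lower at an unadjusted p under 0.05 and 0 higher, with a median log2 fold change of -0.12, where 16.5% of all tested genes were lower and 2.09% higher. With the median of ratios, 3 were lower (Nid2, Col4a1 and Nid1) and 0 higher, where 8.2% and 7.36% of all tested genes were. The median of the 14 turned to 0.10. All 5, Nid2, Col4a1, Nid1, Hspg2 and Col4a2, encode components of the membrane itself. Agrn, also such a component, had means of 5.70 and 5.53 FPKM and a fold change of -0.042. Col4a1, a chain of collagen IV, was at 51.6, 73.8 and 27.4 FPKM in Ang II mice and at 25.6, 24.0 and 19.5 FPKM in Ang II + Tec mice, without overlap, with a fold change of -1.01 ± 0.33 (limma, unadjusted p = 0.0166, adjusted p = 0.224). Nid2 and Nid1, the nidogens that bind the gamma chain of laminin to collagen IV, had fold changes of -0.51 ± 0.15 (unadjusted p = 0.0112, adjusted p = 0.220) and -0.76 ± 0.25 (unadjusted p = 0.0169, adjusted p = 0.226, limma). Dag1, Dmd, Utrn and the sarcoglycans, which anchor the cardiomyocyte to laminin, had fold changes between -0.13 and 0.12.

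Of 13 integrin ligands outside the laminins, 11 were tested, 2 were lower and 0 higher at an unadjusted p under 0.05, and the median log2 fold change was -0.39, where 16.5% of all tested genes were lower. With the median of ratios, 1 was lower, Fn1, where 8.2% of all tested genes were, and the median of the tested ligands was -0.18. Fn1, fibronectin, was at 21.3, 47.2 and 3.40 FPKM in Ang II mice and at 2.02, 5.64 and 2.40 FPKM in Ang II + Tec mice. Ang II replicate 3 was again among the Ang II + Tec values, and the fold change was -2.04 ± 0.80 (limma, unadjusted p = 0.0378, adjusted p = 0.252). Adam15, a membrane protease with an integrin binding domain, had a fold change of -0.39 ± 0.16 (limma, unadjusted p = 0.0407, adjusted p = 0.256), and Tgfb1, whose latent protein binds alphav integrins, one of -0.39 ± 0.16 (limma, unadjusted p = 0.05004, adjusted p = 0.268). Tnc, named after its values had been seen, did not pass the filter. It was at 4.63, 6.29 and 0.23 FPKM in Ang II mice and at 0.05, 0.15 and 0.10 FPKM in Ang II + Tec mice, without overlap.

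The spread between mice was larger in Ang II mice for 15 of the 21 tested subunits on the log2(FPKM + 1) scale, and for 63.6% of all tested genes. For Itgb5 the SD was 0.94 in Ang II mice and 0.090 in Ang II + Tec mice, and for Itgb2 it was 0.42 and 0.038. Itga8 was an exception, with 0.92 and 1.32. Within Ang II + Tec mice, replicate 2 was the highest library for 29 of the 36 subunits. The share of all genes for which it was the highest is not given, so this count is not read as particular to the subunits. Without Ang II + Tec replicate 2, 10 tested subunits that were lower did not overlap between the groups, where 44.3% of all tested genes did not.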

How the data were processed

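The authors extracted heart RNA, selected polyadenylated RNA, made paired-end libraries, trimmed reads with Cutadapt and deposited FPKM per gene and library. A phrase of the deposited protocol speaks of adipose RNA, although every tissue label says heart. The submitters' processing notes name Bowtie 0.12.2, HISAT2 2.0, StringTie 1.3.0 and the build mm8, while the deposited coordinates equal those of GENCODE M21 on GRCm38 for 90.6% of the shared genes and for 33 of the 36 subunits, so coordinates are given as GRCm38. FPKM hold no read totals. Fragments were estimated from the spacing of low values, and relative depth ran from 0.890 to 1.18.

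Deposited FPKM were tested as log2(FPKM + 1) with limma 3.58.1 in R 4.3.3 (eBayes with a trend), for genes with at least 0.5 FPKM in at least 3 libraries, with Benjamini-Hochberg adjustment over 13089 genes. This scale understates changes of low genes. The smallest p that an exact permutation test could give for 1 gene in 3 mice against 3 is 0.1. No covariate or block was used. The labels do not say that replicate numbers mark shared litters or days. Each library is named by its labels as a separate heart. The fit was tested on simulated data. Values of 1 subunit, which is counted among the 36, are not reported here.

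Values in every library are given for tested subunits with an unadjusted p under 0.05, with groups that do not overlap or with a mean of at least 10 FPKM, for Itga7, Itgb1, Lama2, Itga11, Itgam and Itgb2 in any case, and for the exceptions stated. From each list of partners the 3 genes with the smallest unadjusted p are given. The members and lists were chosen with earlier results of these data known. Tables were handled with pandas 2.3.3 in Python 3.11.15 and drawn with matplotlib 3.10.9. Alternatives changed the pseudocount, filter, scaling, block, variance trend and library weights, and left out each library.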

Additional observations from a re-analysis of the deposited data

How the results depend on the processing

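FPKM give no counts, so counting error is not known, and 3 mice a group limit the precision. Whether the replicate numbers pair the mice is not settled. Correlations of deviations from the group means were -0.039, 0.43 and 0.38 for libraries of like number. For libraries of unlike number they ran from -0.44 to 0.23. With the replicate block, 0 subunits were differentially expressed, 9 were lower at an unadjusted p under 0.05, and 7 genes of the adhesion machinery were lower. With library weights these counts were 2, 11 and 16, and the median of the subunits was -0.53. The shares of all tested genes with the block or the weights are not given, so these counts are not read as particular to the subunits. The median of ratios gave 1 subunit higher and quantile scaling 2, each gave 2 higher without overlap and 1 machinery gene lower, and quantile scaling gave a median of -0.066. With the median of ratios, 1428 of all 13089 tested genes were higher without overlap. The share with quantile scaling is not given. With no filter, the count of subunits higher without overlap was 1, which was Itgad, for which no direction is given because its reads may not be separable from those of Cox6a2. Leaving out 1 library gave 0 to 2 subunits differentially expressed, 3 to 10 lower and 0 to 1 higher at an unadjusted p under 0.05, 5 to 14 lower and 0 to 2 higher without overlap, 1 to 14 machinery genes lower, and medians of -0.49 to -0.20. The highest of these counts and the lowest median came without Ang II replicate 3, except that the 1 subunit higher at an unadjusted p under 0.05, Lamb3, came without Ang II + Tec replicate 1, and the count of 3 came without Ang II replicates 1 or 2 or Ang II + Tec replicates 1 or 3. Without Ang II replicate 3, 7023 of all 13089 tested genes were lower and 895 higher without overlap. In that fit 5149 of them were lower at an unadjusted p under 0.05 (limma). Estimates near 0 changed sign. With the median of ratios and with quantile scaling they were 0.018 and 0.044 for Itga1, 0.058 and 0.068 for Itga5, 0.023 and 0.036 for Itga7, 0.039 and 0.075 for Itga8, 0.17 and 0.18 for Lama5 and 0.21 and 0.22 for Lamb2. Scaling by the nuclear sum gave 0.012 for Lamb2, and library weights gave -0.11 for Itga3 and 0.089 for Lama5. Leaving out 1 library gave ranges of -0.082 to 0.15 for Itga3, -0.49 to 0.11 for Itga5, -0.86 to 0.41 for Itga8, -0.020 to 0.13 for Itgb6, -0.16 to 0.062 for Lama5 and -0.13 to 0.044 for Lamb2. The cause of these changes was not tested.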
